A study of Xenopus tropicalis with 11 samples.

Results

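Cenp-a is the histone H3 variant that replaces H3 in a share of the nucleosomes of centromeres, where it marks the site on which the kinetochore is built. Outside centromeres most nucleosomes carry ordinary H3, so a pull-down with a Cenp-a antibody can be set against the input chromatin across whole chromosomes, not only at the centromeres. Micrococcal nuclease (MNase) cuts the DNA between nucleosomes, and the input records how much of each region was released as mononucleosomes before any antibody was added. The question here was how the ratio of Cenp-a to input varied over the whole of the *X. tropicalis* genome, including all differences that were small: their size, sign, length along the chromosomes and distribution between chromosomes.

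The members are the 10-kb bins on the 10 chromosomes, which were chosen by position and not by their counts: 144914 of the 145051 bins that were counted. Of these, 144609 had at least 10 counts in at least 3 of 6 libraries and were tested, and 305 were not. The 6 libraries are Cenp-a replicates 1, 2 and 3 and input replicates 1, 2 and 3, each Cenp-a library being compared with the input of its number. All come from wild-type XTN-6 cells of the NXR Nigerian strain, a cultured *X. tropicalis* line, and both groups share the nuclear isolation, MNase digestion and preclearing. The sample records also name whole tadpoles at stage NF 20 as the cell type. Embryos of about that stage are given in the study's description as the source of the line. The Cenp-a antibody was raised in rabbit against the *X. laevis* protein and cross-reacts with that of *X. tropicalis*. The replicates are called biological in the sample records and technical in the study's own description, so p-values measure only the spread between these libraries.

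Depth differed between the Cenp-a libraries by much more than between the inputs. Cenp-a replicates 1, 2 and 3 had 53491615, 13576415 and 229872947 counts, and the inputs 59563801, 42471017 and 78281804. The median bin held 317, 82 and 1371 Cenp-a counts and 348, 253 and 465 input counts. Replicate 2 is thus the least precise, with a median counting error of 0.18 on the log2 ratio of a bin, against 0.11 in replicate 1 and 0.078 in replicate 3. H3 (replicates 2 and 3), H4 (replicate 1) and IgG (replicates 2 and 3) libraries of the same series were set against the same inputs in the same bins. They share the inputs with the Cenp-a comparison, so their values are given beside it without a test. Among these control libraries IgG replicate 2 was the shallowest, with 4053600 counts and a median of 24 per bin. Its ratios in single bins therefore rest on few counts.

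The strongest Cenp-a signal lay in 1 main cluster per chromosome. These 10 clusters hold 75 bins that were called at 5-fold or more, and the median log2 ratio in their 90 bins was 3.47, 2.51 and 2.98 in replicates 1, 2 and 3. They were defined by these same values and are a description only. Together with 500 kb on either side they take up 1089 tested bins, and the other 143520 bins are the main subject here.

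Over nearly all of the genome, Cenp-a and input were close to proportional. By the fitted fold change, 49.7% of the tested bins lay less than 1.5-fold above the input and 49.1% less than 1.5-fold below it. Differences of 2-fold or more were rare: 41 called bins were at least 2-fold higher outside the main clusters and their surroundings, and 24 were at least 2-fold lower. At 5-fold, 2 higher bins and 1 lower bin were left there.

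Smaller differences were numerous and ran both ways. With edgeR's quasi-likelihood test and the replicate as a block, 5519 bins were higher in Cenp-a than in input, 3.82% of those tested, and 7906 were lower, 5.47%, at a Benjamini-Hochberg adjusted p under 0.05. At an unadjusted p under 0.05 the counts were 15843 and 18787. Most of the called bins differed by less than 1.5-fold, 4911 of the higher (89.0%) and 6897 of the lower bins (87.2%). The median called bin was 1.33-fold higher (log2 0.42, median SE 0.11) or at 0.743 of the input (log2 −0.43, median SE 0.11), and no bin with a log2 difference nearer to 0 than 0.28 passed the test. All 3 replicate ratios lay on the side of the call in 5251 of the higher bins (95.1%) and 7297 of the lower bins (92.3%). The calls were made from these same libraries, so these shares are a description only. The excess of lower over higher bins depended on the scaling: with the total outside the main clusters, 6797 bins were higher and 6794 lower. The number of calls depended on the libraries used. Without replicate 2, the shallowest, 11121 bins were higher and 14419 lower, without replicate 1 the counts were 1289 and 1878, and without replicate 3 they were 980 and 1276.

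Called bins did not have the same input on both sides. Higher bins had a median input of 0.921 times the median of their chromosome, and lower bins 1.33 times. The input is the denominator of the ratio, so a bin whose input is high by error tends to be lower, and no test was made of this relation. When bins were ordered by relative input and split into 10 equal classes, the class with the highest input had 24.8% lower and 1.94% higher bins. The class next to the lowest had 1.38% lower and 6.63% higher bins.

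The replicates agreed better the wider the region over which counts were summed. In single bins, the log2 ratios of replicates 1 and 3 had a Pearson correlation of 0.675 across 144609 bins, whereas replicate 2 had 0.273 with replicate 1 and 0.316 with replicate 3. With the main clusters and 500 kb around them left out, these rose to 0.910, 0.538 and 0.567 over 100 kb (14396 regions) and over 1 Mb (1452 windows) to 0.978, 0.806 and 0.836. No library is shared between these ratios, but bins are not independent replicates, and the values are descriptions. The share of regions with all 3 ratios on the same side of 1 was 42.7% at 10 kb, 59.8% at 100 kb and 73.2% at 1 Mb.

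The spread of the ratio narrowed with width but stayed well above the counting error. In replicate 1 the middle 98% of bins ran from 0.576 to 1.64 times the input, in replicate 2 from 0.602 to 1.53 and in replicate 3 from 0.679 to 1.41. At 1 Mb the SD of the log2 ratio was 0.17, 0.057 and 0.12 in replicates 1, 2 and 3, where the median counting error was 0.011, 0.019 and 0.0078. Replicate 2 thus had the smallest wide-scale differences of all 3.

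**Figure D1:**
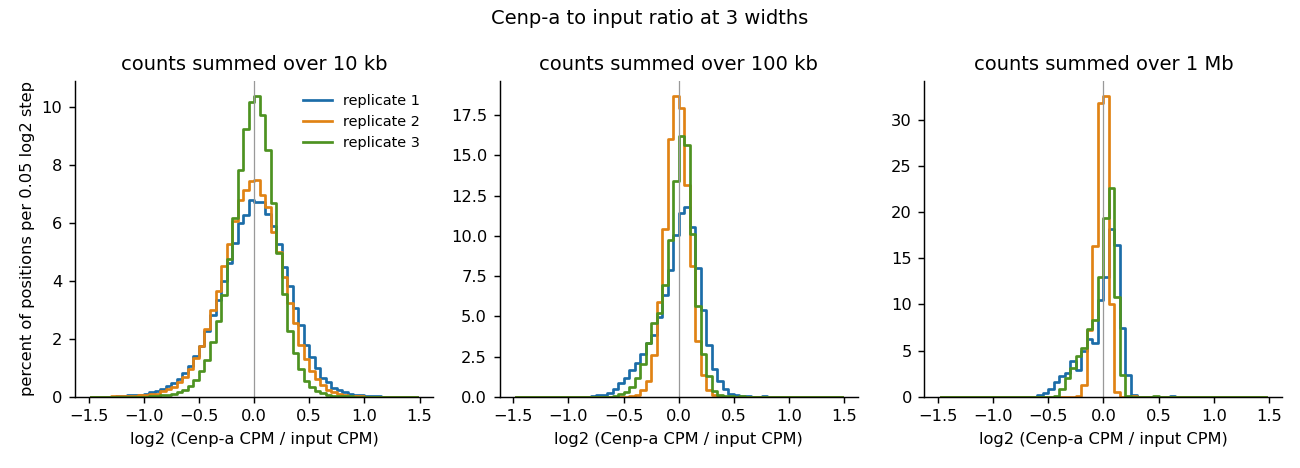
Percent of positions (y axis) by log2 ratio of Cenp-a to input in scaled counts (x axis, steps of 0.05) for replicates 1, 2 and 3, with counts summed over 10 kb, 100 kb and 1 Mb, the main clusters being left out only at 1 Mb. The 3 distributions are centred close to 0 at every width, and at 1 Mb those of replicates 1 and 3 have a long lower tail while replicate 2 is narrow (SD 0.17, 0.12 and 0.057).

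The ratio fell toward the ends of the chromosomes. In the outermost 1 Mb, the median log2 ratio of a bin was −0.44, −0.14 and −0.32 in replicates 1, 2 and 3, and 862 of 1959 bins (44.0%) were lower against 9 (0.459%) higher. From 5 to 10 Mb it was −0.22, −0.075 and −0.17, with 15.5% of bins lower. Beyond 50 Mb from an end it was above 0 in each replicate, at 0.10, 0.0071 and 0.068, and there 5.42% of bins were higher and 1.05% lower. The change of sign fell between 20 and 30 Mb, where 2.67% were higher and 2.62% lower. Without replicate 1, 266 of the 1959 outermost bins were lower, without replicate 2 1197 and without replicate 3 171.

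The fall was present at every end. Over the last 5 Mb, the median log2 ratio was below 0 at 20 of 20 chromosome ends in each of the 3 replicates, and every end had more lower than higher bins. On 10 of 10 chromosomes the ends had a lower median than the bins at least 20 Mb from an end, in all 3 replicates. On chromosome 1, for example, the end medians were −0.34, −0.13 and −0.25 and the inner medians 0.084, 0.0023 and 0.056 in replicates 1, 2 and 3.

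Some control libraries changed with distance in the same way and others did not. In the outermost 1 Mb the median log2 ratio to input was −0.30 for H3 replicate 3, close to Cenp-a replicate 3, and −0.32 for H4 replicate 1, less low than Cenp-a replicate 1. H3 replicate 2 was at 0.024, IgG replicate 2 at 0.10 and IgG replicate 3 at −0.0046. The input itself was higher at the ends, with a median of 7.91, 6.76 and 7.06 CPM (counts scaled to 1000000 on the chromosomes) in replicates 1, 2 and 3 in the outermost 1 Mb against 5.44, 5.77 and 5.70 CPM beyond 50 Mb. The rise of the input was largest in replicate 1 and smallest in replicate 2, the order in which the Cenp-a ratio fell, and the part of the input in the result was not tested.

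**Figure D2:**
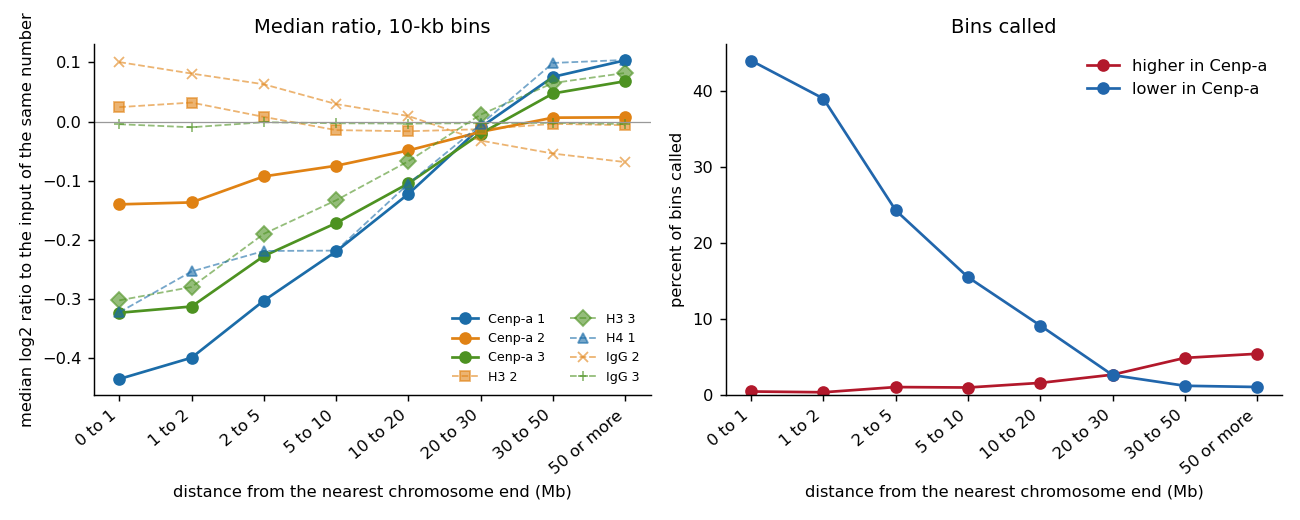
Left, median over 10-kb bins of the log2 ratio to the input with the same number (y axis) by distance from the nearest chromosome end in Mb (x axis, unequal classes), for Cenp-a (solid lines) and for H3, H4 and IgG (dashed lines), with colour giving the replicate. Right, percent of bins called higher or lower in Cenp-a, where the lower calls fall from 44.0% in the outermost 1 Mb to 1.05% beyond 50 Mb and the higher calls rise from 0.459% to 5.42%.

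Windows of 1 Mb showed the same division with far less counting error. Of 1452 windows, 186 (12.8%) were higher and 329 (22.7%) lower. All 3 replicate ratios lay on the side of the call in every called window, which is a description only, since the calls rest on the same libraries. Within 10 Mb of an end lay 210 windows, of which 191 were lower and 0 higher by edgeR's test (204 and 1 at an unadjusted p under 0.05, and 205 and 1 by DESeq2). Of the 186 higher windows, 184 lay at least 20 Mb from an end, in a total of 1042 windows there, which also held 36 lower ones. The differences were small: the median higher window was 1.08-fold above input and the median lower one at 0.883 of it.

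The window calls lay close to the threshold. Their adjusted p-values by edgeR ranged only from 0.029 to 0.050, and with DESeq2's size factors 0 windows were higher and 0 lower by the same test, although 350 and 417 had an unadjusted p under 0.05. The share of higher windows among those called, 36.1%, became 53.1% (322 higher, 284 lower) when libraries were scaled to the total outside the main clusters, and 50.0% (299 and 299) when the median ratio was set to 1. Without replicate 1 the counts were 35 and 223, without replicate 2 568 and 459 and without replicate 3 11 and 141.

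**Figure D3:**
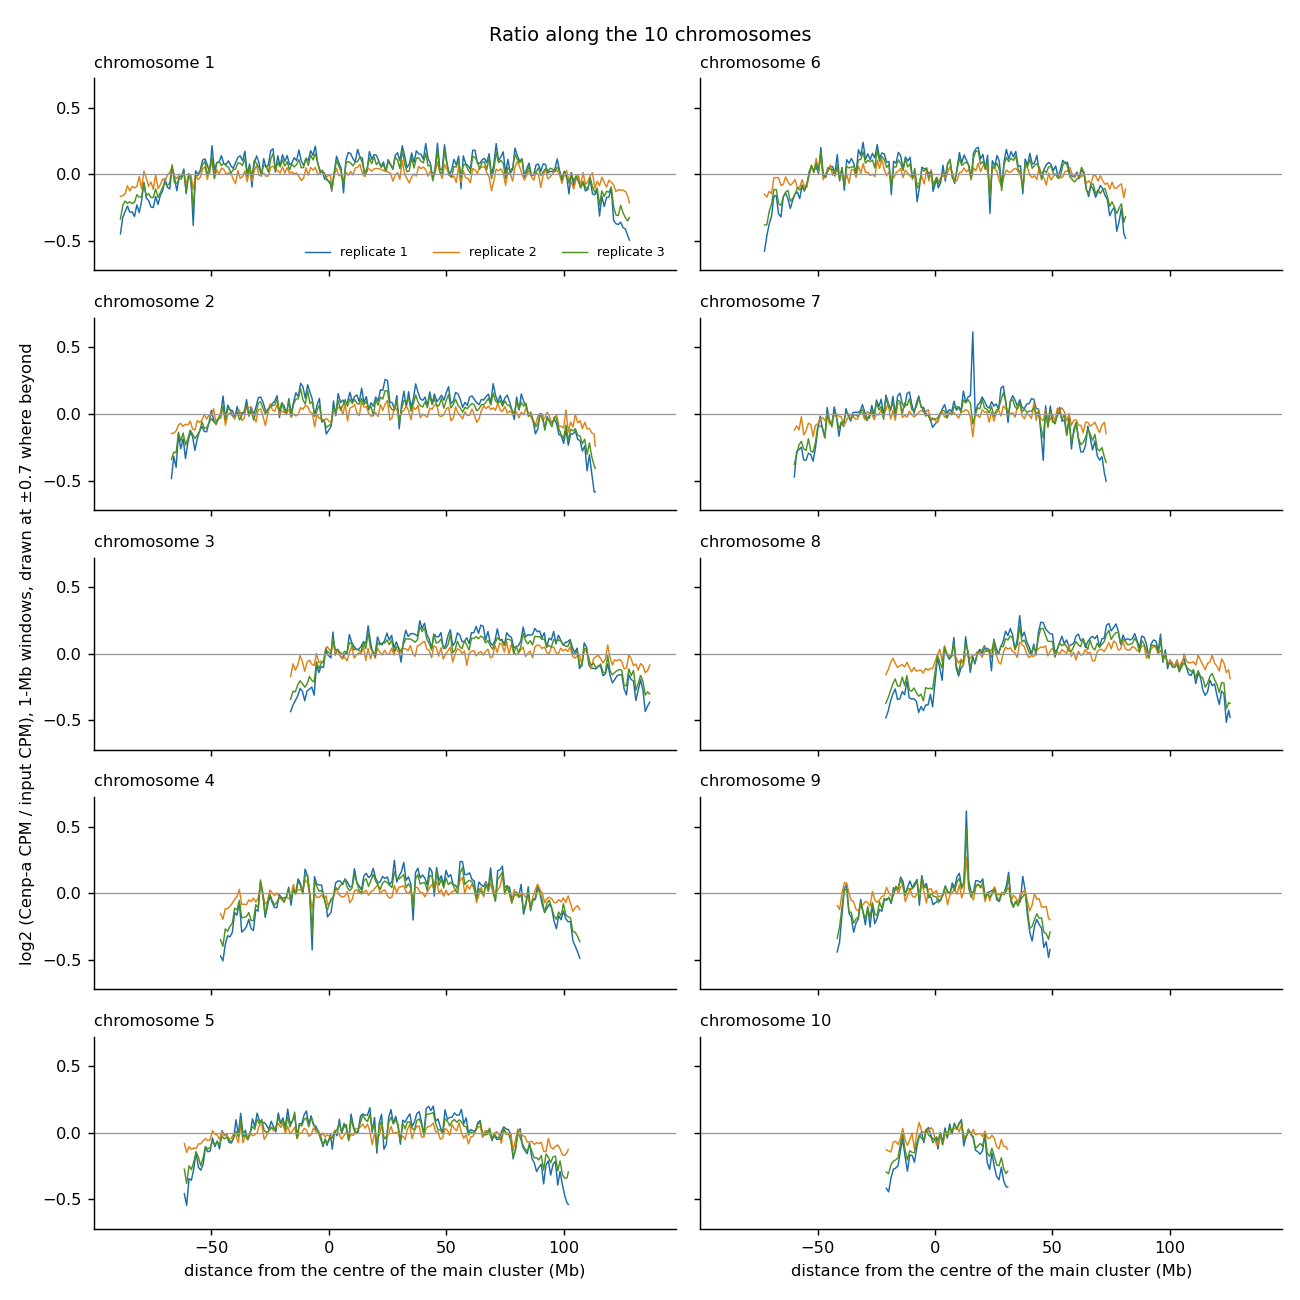
Log2 ratio of Cenp-a to input in 1-Mb windows (y axis, values beyond ±0.7 drawn at that limit) along each chromosome, by distance from the centre of its main cluster in Mb (x axis), for replicates 1, 2 and 3. All 10 chromosomes curve down at both ends, most in replicate 1, and single windows stand out on chromosomes 7 and 9.

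The lowest window at least 20 Mb from an end lay on chromosome 4 (39002947 to 40002946, genome version 10), with ratios of 0.744, 0.922 and 0.807 in replicates 1, 2 and 3 and a log2 difference of −0.28 ± 0.060 (SE, adjusted p = 0.029 by edgeR). It overlaps 13 annotated genes, among them actn3, which encodes an actinin. Its mean input of 17.3, 15.9 and 16.5 CPM per bin was well above the genome-wide median of 5.85, 5.96 and 5.94 CPM. The lowest windows of all lay at chromosome ends. On chromosome 6, for instance, the first 1 Mb had ratios of 0.672, 0.902 and 0.769, and on chromosome 4 the second (1000001 to 2000000), which overlaps tph1 for a tryptophan hydroxylase, had 0.706, 0.875 and 0.761. On chromosome 2, the last full window (180015222 to 181015221), which overlaps apbb1, had 0.668, 0.901 and 0.766, and the last bin after it had 0.667, 0.846 and 0.754. On chromosome 5, the second window (1000001 to 2000000) had 0.690, 0.905 and 0.772, and 47 of its bins were lower. In these windows at chromosome ends H4 replicate 1 was at 0.597 to 0.783 times its input and H3 replicate 3 at 0.763 to 0.791. H3 replicate 2 was at 1.04 to 1.21 and the IgG libraries at 0.979 to 1.12.

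Among higher windows, 1 stood far above the others. On chromosome 9 (55004420 to 56004419), Cenp-a was 1.53, 1.20 and 1.40 times the input, and 27 bins were higher. It overlaps 10 protein-coding genes, among them sumo3, which encodes a ubiquitin-like modifier. The window took 1.09%, 0.842% and 0.962% of all Cenp-a counts and 0.714%, 0.698% and 0.688% of all input counts, and its mean input per bin was 12.2 to 12.8 times the chromosome's median bin. In the same window H4 replicate 1 was 1.48 times, H3 replicate 2 1.3 times, H3 replicate 3 1.36 times, IgG replicate 2 1.03 times and IgG replicate 3 1.11 times the input. The other 4 highest windows had mean inputs of 4.97 to 7.87 CPM per bin and log2 differences of 0.17 to 0.19. They were on chromosome 8 (57004420 to 58004419, with fmr1, which encodes an RNA-binding protein, aff2 and ids), chromosome 4 (103008348 to 104008347, with snx7 and plppr5), chromosome 2 (92007366 to 93007856, with the T-box genes tbx2 and tbx4) and chromosome 6 (48003929 to 49003928, with nek10 and slc4a7).

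A window on chromosome 7 showed how 1 replicate can set a value. Between 76006384 and 77006383 the ratio was 1.53 in replicate 1 but 0.889 and 0.950 in replicates 2 and 3, and the window was not called (adjusted p = 0.52 by edgeR). It overlaps 38 of the annotated ribosomal RNA genes, and its mean input was 15.9 CPM per bin in replicate 1 against 9.84 and 9.77 in replicates 2 and 3. This window was chosen after its values were seen, as that with the widest spread between replicates among windows at least 20 Mb from an end.

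Around the main clusters the ratio was slightly low. Among bins at least 20 Mb from an end, those 0.5 to 1 Mb from a main cluster had a median log2 ratio of −0.099, −0.033 and −0.061 in replicates 1, 2 and 3, with 4.69% lower and 1.11% higher. From 10 to 20 Mb away the medians were 0.083, 0.0084 and 0.056, with 0.975% lower and 5.04% higher. H4 replicate 1 was at −0.14 and H3 replicate 3 at −0.020 in the nearer class.

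Most called bins stood alone. Main clusters included, the 5519 higher bins formed 4175 runs of adjacent bins with a median length of 1 bin and a mean of 1.32, and the 7906 lower bins formed 5473 runs with a median of 1 and a mean of 1.44. Single bins made up 59.8% of the higher and 51.9% of the lower bins. Runs of 5 bins or more held 5.64% of the higher and 9.59% of the lower bins. Called bins nevertheless had neighbours of their own kind: away from the main clusters, the bin after a higher one was also higher in 23.3% of cases and lower in 0.555%, and the bin after a lower one was lower in 30.8% and higher in 0.381%. Of all bins there, 3.77% were higher and 5.49% lower. Lower bins were most common near chromosome ends, as described above, and the part of position in these shares was not tested. Of the 1452 windows of 1 Mb, 1139 held at least 1 higher bin, 1004 at least 1 lower bin, 719 both and 28 neither. A full window has 100 bins, and 3.82% of all bins were higher and 5.47% lower. At least 1 called bin in a window therefore says little about how finely the 2 kinds were mixed, which was not tested.

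**Figure D4:**
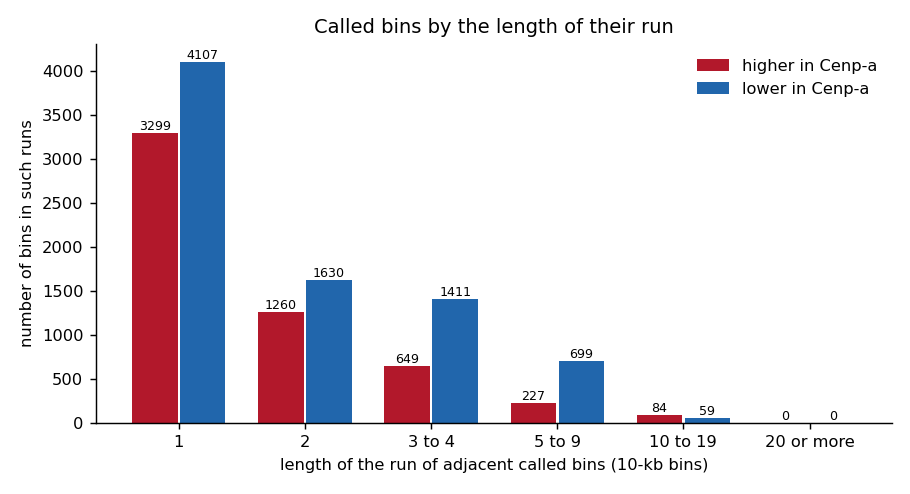
Number of called bins (y axis) by the length of the run of adjacent bins called in the same direction (x axis, in 10-kb bins). Single bins are the largest class in both directions (3299 higher, 4107 lower), and with the main clusters included 84 higher and 59 lower bins lie in runs of 10 or more (39 and 59 away from them).

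The longest run of higher bins away from the main clusters lay on chromosome 6, where 16 adjacent bins (24591965 to 24751964) overlap armc4 and mkx, a homeobox gene of tendon development in mammals. Cenp-a held 8.05, 6.89 and 7.53 CPM per bin there and input 4.95, 5.04 and 5.09 CPM in replicates 1, 2 and 3, so all 3 Cenp-a libraries were above all 3 inputs. On chromosome 5, 12 bins (105028839 to 105148838) overlap fgf12, which encodes a member of the fibroblast growth factor family that acts inside the cell, with 10.8, 9.01 and 9.85 CPM in Cenp-a and 6.85, 7.41 and 6.90 CPM in input. On chromosome 9, 11 bins (55604420 to 55714419) overlap no annotated gene and hold 457, 332 and 387 CPM per bin in Cenp-a and 280, 260 and 257 CPM in input. This run lies inside the highest window, described above, and is a part of its counts.

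The fourth run was on chromosome 2, where 9 bins (91387366 to 91477365) overlap vmp1, which encodes a membrane protein of autophagy, with ratios of 2.07, 1.40 and 1.74. Its bins ranged from log2 0.35 to 2.13, and the largest of them is also the highest bin of chromosome 2 named below. On chromosome 6, 9 bins (83936875 to 84026874) overlap cdh6, which encodes a cadherin, with ratios of 1.63, 1.14 and 1.38. In these 5 runs the H4 library was also above its input, by 1.57 to 1.71 times, and H3 replicate 3 by 1.29 to 1.46 times.

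The longest runs of lower bins lay near chromosome ends in 4 of 5 cases. Both runs of 13 bins are on chromosome 8. The first (580001 to 710000) overlaps 11 genes, including arhgef3.1 and ccdc115, and held 6.75, 6.94 and 6.40 CPM per bin in Cenp-a and 10.5, 8.61 and 9.29 CPM in input. The other (145792276 to 145922275), 1.31 Mb from the end, overlaps efna3 and efna1, which encode ephrins, with ratios of 0.649, 0.874 and 0.721 in replicates 1, 2 and 3. A run of 11 bins on chromosome 4 (670001 to 780000) overlaps otog, known in mammals for an inner-ear protein, and one of 10 bins lies 1.46 Mb from an end of chromosome 6. The exception was a run of 12 bins over tars3 on chromosome 3 (97967857 to 98087856), 55.8 Mb from an end, with 12.1, 15.3 and 13.0 CPM in Cenp-a and 19.3, 18.7 and 19.3 CPM in input.

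Between whole chromosomes the ratio hardly differed. With the main clusters included and chromosomes ordered by the mean log2 ratio of 3 replicates, the share of Cenp-a counts relative to the share of input counts was highest on chromosome 9, at 1.04, 1.02 and 1.03 in replicates 1, 2 and 3, and next highest on chromosome 3, at 1.02, 1.01 and 1.02. Chromosome 7 was close to it, at 1.03, 1.01 and 1.01. It was lowest on chromosome 8, at 0.958, 0.989 and 0.968, and next lowest on chromosome 10, at 0.952, 1.00 and 0.970. With the main clusters and 500 kb around them left out, chromosome 10 was lowest (mean log2 −0.076) and chromosome 8 next (−0.064), and chromosome 9 was highest (0.026), with chromosome 1 (0.0025) above chromosome 3 (−0.00054). With 3 pairs, the exact two-sided sign-flip test cannot go below p = 0.25, and adjusted over 10 chromosomes no p was below 0.42. On chromosome 9 the sum and the typical bin differed in sign: the median bin was at −0.037, −0.023 and −0.034 on the log2 scale, and without the window at 55 Mb the chromosome's ratio was 0.974, 0.996 and 0.979.

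The share of called bins varied more between chromosomes than the ratio did. Lower bins made up 11.6% of chromosome 10 and 8.33% of chromosome 8, against 3.96% to 6.15% on the other 8 chromosomes, beside 5.47% in all. Higher bins ranged from 2.43% on chromosome 10 to 5.57% on chromosome 3, beside 3.82% in all. Chromosome 10 is the shortest, with 19.1% of its length within 5 Mb of an end against 4.58% of chromosome 1. Chromosomes 3, 8 and 10 also had a higher input, with medians of 7.78, 7.69 and 7.63 CPM per bin in replicate 1 against 5.31 to 5.63 CPM on the others. Within the outermost 5 Mb, lower bins were 24.2% to 39.2% of every chromosome, and at least 20 Mb from an end they were 0.874% to 2.56%.

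Below 5-fold and away from the main cluster, the highest single bin of a chromosome had a log2 difference of 0.98 to 2.13. On chromosome 3 (41973438 to 41983437) it overlaps dusp1, an immediate-early gene for a phosphatase, with 1078, 190 and 3547 Cenp-a counts and 373, 281 and 512 input counts in replicates 1, 2 and 3. The ratios were 3.18, 2.10 and 2.34 (log2 1.36 ± 0.11, SE, adjusted p = 1.5e-09 by edgeR), above the H4 library at 1.96 and the H3 libraries at 1.21 and 1.48 times their inputs. On chromosome 5 (91797366 to 91807365) the bin overlaps eef1a1, which encodes a translation elongation factor, with ratios of 2.90, 1.88 and 2.29. On chromosome 8 (107688839 to 107698838) it overlaps srsf5, for a splicing factor, with 3.22, 1.75 and 2.32, and on chromosome 10 (28621965 to 28631964) actg1, for a cytoplasmic actin, with 4.18, 1.81 and 2.10.

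In the bins of eef1a1, srsf5 and actg1 the H4 library was at 1.98, 2.45 and 2.67 times its input, with IgG between 0.988 and 1.15. The other named bins were those of acsbg2 on chromosome 1 (log2 1.08), higd1a on chromosome 6 (1.5) and LOC108644477 on chromosome 7 (1.10). Those of chromosomes 4 and 9 overlap no annotated gene (1.91 and 0.98). The bin of chromosome 9 had only 0.104 times the median input of its chromosome, with 25, 28 and 52 input counts. IgG replicate 2 was at 2.08 times its input there, on few counts, and IgG replicate 3 at 0.859. The largest difference was on chromosome 2 (91437366 to 91447365), over vmp1 and the non-coding LOC116408854, with 1154, 120 and 3413 Cenp-a counts and 156, 166 and 308 input counts. Its ratios were 7.97, 2.23 and 3.70 (log2 2.13 ± 0.33, SE, adjusted p = 0.025 by edgeR), so the replicates differed widely, and H4 was at 5.49.

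The lowest bins differed in kind. On 7 of 10 chromosomes the bin had less than 0.41 times the median input of its chromosome, down to 0.0532 on chromosome 8, so that few counts carried the ratio. The clearest was a bin of normal input on chromosome 9 (13440983 to 13450982) with no annotated gene. It held 54, 19 and 390 Cenp-a counts and 365, 304 and 538 input counts, ratios of 0.178, 0.207 and 0.258 (log2 −2.24 ± 0.15, SE, adjusted p = 2.9e-11 by edgeR). Every other library was below its input there too: H4 at 0.259, H3 at 0.452 and 0.281, and IgG at 0.286 and 0.662. On chromosome 3 (540001 to 550000) the bin lay 0.54 Mb from an end, with ratios of 0.366, 0.572 and 0.511, and on chromosome 7 (133330803 to 133340802) 0.22 Mb from an end, with 0.328, 0.685 and 0.510.

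Bins with protein-coding genes were more often higher. Away from the ends, at least 20 Mb inside, 6.43% of the bins that overlap a protein-coding gene were higher and 0.845% lower, whereas bins without one were balanced at 2.24% and 2.19%. In the outermost 5 Mb, 0.985% of the bins with a gene were higher and 31.3% lower, against 0.375% and 30.7% of those without. Median log2 ratios of Cenp-a in the interior were 0.10, 0.017 and 0.063 with a gene and 0.037, −0.020 and 0.022 without, in replicates 1, 2 and 3. H4 replicate 1 was at 0.13 with a gene and 0.012 without, and H3 replicate 3 at 0.077 and 0.045. H3 replicate 2 was at −0.00072 and −0.015. IgG replicates 2 and 3 were at −0.059 and −0.0021 with a gene and −0.051 and −0.0051 without.

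Ribosomal protein genes were the gene group with the largest share of higher bins among the lists examined. Ribosomal proteins are needed by every growing cell, and their genes are spread over all chromosomes. Of 79 genes found by symbol, 63 overlapped a higher bin and 0 a lower one by edgeR (98 and 1 of their bins at an unadjusted p under 0.05, and 39 and 0 by DESeq2). Their 123 bins had 61.0% higher, beside 3.82% of all bins, and a median log2 ratio of 0.51, 0.32 and 0.33 in replicates 1, 2 and 3, where all bins had 0.0084, −0.017 and 0.00027. Replicate 2 was close to replicate 3 here, unlike at the chromosome ends. In 11 alternatives the number of higher bins ranged from 26 (without replicate 3) to 90 (without replicate 2), and the median fitted log2 difference from 0.31 to 0.43.

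The bin with the largest difference in this list was that of rpl10a on chromosome 2 (69475402 to 69485401), with 699, 125 and 2373 Cenp-a counts and 311, 197 and 366 input counts. It was 2.25-fold higher (log2 1.17 ± 0.10, SE, adjusted p = 1.9e-08 by edgeR). The next were rplp0 on chromosome 1 (log2 0.80 ± 0.10) and rpl32 on chromosome 4 (0.80 ± 0.11). Genes that overlapped no higher bin included rpl10 (0.13) and rpl38 (0.16). Even within 10 Mb of an end, 5 of 10 ribosomal protein genes overlapped a higher bin and 0 a lower one. In the classes of distance there, 0.357% to 1.04% of all bins were higher and 15.5% to 44.0% lower, though a gene can overlap more than 1 bin. The median log2 ratio over the 123 bins was 0.41 in H4 replicate 1, 0.19 and 0.055 in H3 replicates 3 and 2, and 0.017 and −0.045 in IgG replicates 3 and 2.

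Small nucleolar RNA genes, many of which lie in introns of ribosomal protein and other housekeeping genes, had 42.6% of 136 bins higher and 2.21% lower. Of all bins, 3.82% were higher and 5.47% lower. The median log2 ratio of the 136 bins was 0.36, 0.18 and 0.25 in Cenp-a replicates 1, 2 and 3. It was 0.32 in H4 replicate 1 and 0.046 and 0.11 in H3 replicates 2 and 3. In the 104 bins without a ribosomal protein gene the shares were 33.7% and 2.88%. The 58 higher bins became 23 without replicate 1 and 25 without replicate 3. Proteasome genes had 13.0% of 115 bins higher and 0 bins lower by edgeR's test (35 and 6 bins at an unadjusted p under 0.05, and 3 and 0 by DESeq2), beside the same 3.82% and 5.47%. The median log2 ratio of the 115 bins was 0.14, 0.028 and 0.14 in Cenp-a replicates 1, 2 and 3. It was 0.24 in H4 replicate 1, 0.029 and 0.091 in H3 replicates 2 and 3, and −0.061 and 0.0088 in IgG replicates 2 and 3. Of 48 genes, 13 overlapped a higher bin, and all 13 lay at least 10 Mb from an end. The highest bin was that of psma4 (log2 0.65 ± 0.12), and psmb1 (0.52 ± 0.12) and psmc6 (0.52 ± 0.10) followed. The 15 higher bins of this list became 2 without replicate 1, 27 without replicate 2 and 3 without replicate 3.

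Histone genes overlapped higher bins also close to chromosome ends. Of 25 genes, 13 overlapped a higher bin, and 8 of the 10 that lie within 10 Mb of an end did so. Both counts include h2ac14, a gene model of over 1 Mb. In the classes of distance within 10 Mb, 0.357% to 1.04% of all bins were higher. A gene can overlap more than 1 bin, so counts of genes are not shares of bins. On chromosome 9, h3c13 (2720001 to 2730000, in its highest bin) had 636, 93 and 1883 Cenp-a counts and 371, 214 and 371 input counts in replicates 1, 2 and 3 (log2 0.77 ± 0.11). On the same chromosome h1-6 was at 0.65 ± 0.11 and h2bc12 at 0.58 ± 0.12, and on chromosome 3 h3c14 and h4c3 share a bin at 0.65 ± 0.091. H4 replicate 1 was at 1.15 times its input in the bin of h3c13. The model of h2ac14 takes up most of the 143 bins of the list. Of the 23 bins of the other models, 11 (47.8%, beside 3.82% of all bins) were higher and 0 lower by edgeR (16 and 0 at an unadjusted p under 0.05, and 10 and 0 by DESeq2). The 11 became 9 without replicate 1, 15 without replicate 2 and 5 without replicate 3.

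Hox genes order the body axis of the embryo, and 9 of 36 overlapped a higher bin. These genes share bins: of the 45 bins of the list, 7 were higher (15.6%, beside 3.82% of all bins) and 1 lower (2.22%, beside 5.47%). At an unadjusted p under 0.05 by edgeR, 8 were higher and 8 lower. The median log2 ratio of the 45 bins was −0.068, 0.014 and −0.062 in replicates 1, 2 and 3, and −0.13 in H4 replicate 1. The 7 higher bins became 4 without replicate 1, 8 without replicate 2 and 5 without replicate 3. All 9 genes with a higher bin were hoxa genes on chromosome 6, from hoxa2 to hoxa13. Of these, hoxa3, hoxa5, hoxa6 and hoxa7 have their largest difference in the same bin (42183438 to 42193437). The bin of hoxa13 (42223438 to 42233437) held 501, 109 and 1751 Cenp-a counts and 259, 224 and 361 input counts (log2 0.83 ± 0.11), and that shared by hoxa9 and hoxa11 was at 0.69 ± 0.11. On chromosome 10 the bin of hoxb9 was lower (−0.59 ± 0.11), with 659, 185 and 2325 Cenp-a counts and 1323, 602 and 1295 input counts. Its ratio was 0.557 and 0.614 in replicates 1 and 3 but 0.962 in replicate 2. The remaining 26 genes overlapped no called bin, and a difference between the clusters was not tested.

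Keratin genes, which encode filament proteins of epithelia, were called in both directions. Of 43 genes, 4 overlapped a higher bin, led by krt18.1 (log2 0.85 ± 0.10) and krt8.1 (0.79 ± 0.11) on chromosome 2, and 8 a lower one. The 8 are among the 26 keratin genes within 10 Mb of an end, where 15.5% to 44.0% of all bins were lower, and krt23 in the same stretch of chromosome 10 was higher (0.59 ± 0.11). The other 17 of the 26 were not called. Of the 76 bins of the list, 6 were higher and 6 lower, 7.89% each, beside 3.82% and 5.47% of all bins. The median log2 ratio of the 76 bins was −0.094, −0.079 and −0.061 in replicates 1, 2 and 3. The sign of the fitted median turned in 1 of 11 alternatives. Leaving out replicate 2 gave 10 higher and 13 lower bins, and leaving out replicate 3 gave 3 higher and 2 lower. When replicate 1 was left out, 3 were higher and 0 lower by edgeR (8 and 7 at an unadjusted p under 0.05). Collagen genes had 4.30% of 465 bins higher and 2.58% lower, beside 3.82% and 5.47% of all bins, with col8a2 highest (0.60 ± 0.12). Their 20 higher bins became 1 without replicate 1, 42 without replicate 2 and 0 without replicate 3 by edgeR (38 at an unadjusted p under 0.05). Zinc finger genes had 5.88% of 629 bins higher and 3.02% lower.

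Kinetochore genes, whose products assemble on Cenp-a chromatin, had called bins in both directions. Of 31 genes, 1 overlapped a higher bin and 3 a lower one, and their 97 bins had 1.03% higher and 4.12% lower, beside 3.82% and 5.47% of all bins. The higher bin is that of cenpp (log2 0.39 ± 0.12) and the lower ones those of ndc80 (−0.51 ± 0.10), cenpj (−0.41 ± 0.11) and dsn1 (−0.35 ± 0.10). In a list of 97 bins these shares rest on few calls. At an unadjusted p under 0.05 by edgeR, 4 bins were higher and 8 lower. Without replicate 2, 5 were higher and 6 lower. By edgeR's adjusted p it was 0 and 1 without replicate 1 and 0 and 0 without replicate 3 (1 and 4, and 2 and 5, unadjusted). Among the 31 genes, cenpj was taken in by its symbol and encodes a centriole protein. The gene for Cenp-a itself, cenpa on chromosome 8, had 471, 98 and 1807 Cenp-a counts and 382, 336 and 504 input counts in its bin with the largest difference and was not called (0.25 ± 0.11, adjusted p = 0.16 by edgeR).

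Olfactory and vomeronasal receptor genes, a large family that is silent in most tissues, had 0 of 43 bins higher and 18.6% lower by edgeR (0 and 14 bins at an unadjusted p under 0.05, and 0 and 2 by DESeq2). Of all bins, 3.82% were higher and 5.47% lower. Within 5 Mb of an end lay 37.2% of the bins of this list, against 6.85% of all bins. All 6 genes with a lower bin were among the 12 within 10 Mb of an end, where 15.5% to 44.0% of all bins were lower. They were led by or52n4 on chromosome 2 (log2 −0.71 ± 0.094). Without replicate 1, 2 of the 43 bins were lower, without replicate 2 14 and without replicate 3 1. V segments of immunoglobulin and T cell receptor genes had 12.3% of 57 bins lower, beside 5.47% of all bins, and these 7 bins became 10 without replicate 2 and 0 without replicate 1 or 3 by edgeR (12 and 5 at an unadjusted p under 0.05). Pseudogenes had 10.8% of 946 bins lower and 1.48% higher, beside 5.47% and 3.82% of all bins. Of their bins, 22.6% lay within 5 Mb of an end, against 6.85% of all bins, and the part of position in these shares was not tested. The 102 lower bins became 28 without replicate 1, 179 without replicate 2 and 20 without replicate 3. Transfer RNA genes had 13.6% of 413 bins higher and 5.08% lower, with a median log2 ratio of −0.049, 0.038 and −0.0086. Micro-RNA genes had 14.8% of 142 bins higher and 4.23% lower, small nuclear RNA genes 5.71% of 105 bins higher and 8.57% lower, and long non-coding RNA genes, at 4.89% and 6.01% of 4741 bins, were near the background. In these 4 lists and the zinc finger genes, both directions had fewer called bins without replicate 1 or 3 and more without replicate 2.

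Ribosomal RNA genes had medians of differing sign between replicates. Their 52 bins had a median log2 ratio of 0.19 in replicate 1 and of −0.18 and −0.23 in replicates 2 and 3, and the sign of their fitted median turned in 3 of 11 alternatives. Of the 52 bins, 10 were lower (19.2%, beside 5.47% of all bins) and 3 higher (5.77%, beside 3.82%). At an unadjusted p under 0.05 by edgeR, 21 were lower and 4 higher. The 10 lower bins became 9 without replicate 1, 18 without replicate 2 and 0 without replicate 3 by edgeR (6 at an unadjusted p under 0.05). Within 5 Mb of an end lay 57.7% of the 52 bins, against 6.85% of all bins, and the part of position was not tested. Their input was 42.8, 25.0 and 23.7 CPM per bin, several times that of other bins. Reads of any mapping quality were counted, so reads of such repeated genes can be placed at more than 1 of their copies.

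**Figure D5:**
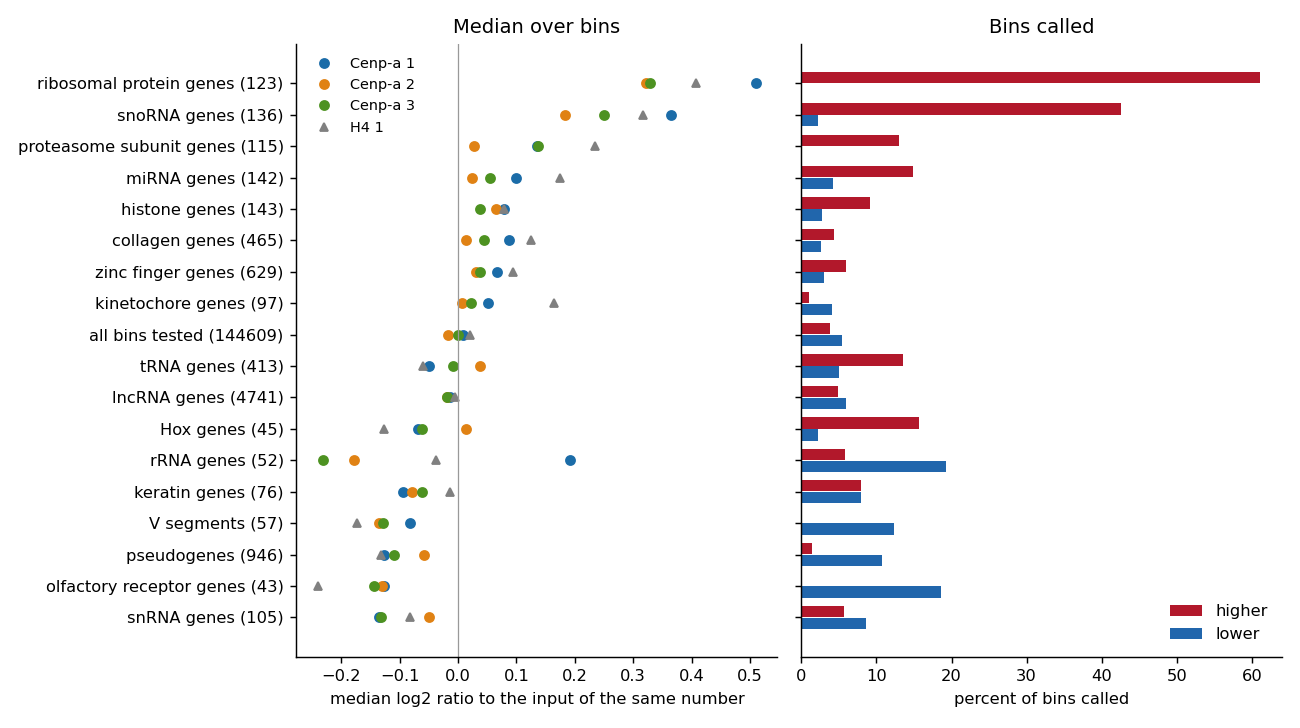
Left, median of the log2 ratio to the input with the same number (x axis) over the bins of each gene list (y axis, number of bins in parentheses) for Cenp-a replicates 1, 2 and 3 and H4 replicate 1. Right, percent of those bins called higher or lower in Cenp-a, led by ribosomal protein genes with 61.0% higher, beside 3.82% and 5.47% of all bins tested.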

How the data were processed

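For 11 libraries, the deposited tables give the raw read count of each 10-kb bin. Per the labels and the study's methods, the authors trimmed reads with Trimmomatic (0.39), aligned them with minimap2 (2.17-r941) to version 10 of the *X. tropicalis* genome, sorted them with SAMtools (1.9) and counted them with deepTools (3.3.0) at any mapping quality. Reads of repeats can therefore lie at another copy. The commands printed by the study include no step against duplicate reads.

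Cenp-a and input (3 replicates each) were compared here with edgeR 4.0.16 and limma 3.58.1 in R 4.3.3 (glmQLFit with robust estimation, glmQLFTest), with library size as the total on the 10 chromosomes and the replicate as a block, since each Cenp-a library was set against the input of its replicate. Deviations from the group means correlated by 0.127, −0.039 and 0.128 for the same number and by −0.212 to 0.142 for different numbers, so the correlations alone do not pair the libraries. SEs were taken from the fold change and the F statistic of the fit. Both values of a bin's ratio were raised by 0.1 CPM first, and runs join bins across gaps of 491 bp between some neighbours. Main clusters join bins called at 5-fold or more up to 200 kb apart. Counting intervals cover counting error only.

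Chromosome numbers follow from matching sequence lengths with the gene table of RefSeq assembly UCB_Xtro_10.0, in which the last gene of a chromosome ended at most 182731 bp before its last bin. That table gives gene limits without strand or description, so genes were matched to bins by overlap and not by their start, and lists by symbol or gene type only. The ribosomal protein list includes rplp genes and neighbours in name such as rpl3l, and the proteasome list includes assembly factors. The named positions are the 5 longest runs of each direction, the highest and lowest called bin under 5-fold of each chromosome with 3 ratios on 1 side, the 5 highest and 5 lowest windows, up to 3 genes at each, and the 2 chromosomes highest and lowest in ratio. Within a list, genes were named from the ends of its range. The bins, lists and rules were chosen with earlier results of these data known, and the lists of small nucleolar, small nuclear and micro-RNA genes, V segments, pseudogenes and long non-coding RNA genes were added after the data were seen.

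Alternatives were other scalings, filters, DESeq2 1.42.0, no block and leaving out each replicate. No genome sequence was used here, so base composition and repeats were not analysed.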

Additional observations from a re-analysis of the deposited data

How the results depend on the processing

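Other scalings, a looser filter and the fit without the block kept the counts of higher and lower bins within 1.5 times. The share of higher bins among those called, 41.1%, became 50.0% with the total outside the main clusters. Without the replicate block, 5469 bins were higher and 7165 lower, of which 5038 and 6835 were called with it, and 253 and 356 windows. DESeq2 called 1300 bins higher and 2119 lower, with no adjusted p for 44858 bins, and a minimum of 100 counts in every library, which left 37967 bins, gave 3336 and 3902. Leaving out 1 replicate gave 980 to 11121 higher bins and 1276 to 14419 lower ones, 11 to 568 higher windows and 141 to 459 lower ones, and a longest run of 5 to 31 lower bins, each time lowest without replicate 3 and highest without replicate 2. Higher windows numbered 0 with DESeq2's size factors (also 0 lower), 322 with the total outside the main clusters, 299 with the median ratio at 1 and 436 by DESeq2. The longest lower run reached 34 bins when 1 bin that was not called was allowed inside. The cause of these shifts was not tested. The stricter filter tests fewer bins. Each fit without 1 replicate has fewer libraries, also that without replicate 2, in which the counts rose.

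Over 100 kb with the main clusters included, 59.8% of regions had all 3 ratios on 1 side, and the mean 1st and 99th percentiles of the log2 ratio were −0.41 and 0.31. With the main clusters and 500 kb around them left out, the mean log2 ratio was −0.013, −0.00054, −0.017, −0.026, −0.020, −0.028, 0.026 and −0.076 on chromosomes 2, 3, 4, 5, 6, 7, 9 and 10. As the median over bins it was 0.012, −0.0022, 0.0031, −0.019, −0.032 and −0.076 on chromosomes 2, 5, 6, 7, 9 and 10. With the median ratio at 1 it was 0.0013 and 0.0017 on chromosomes 4 and 6. Without its highest window, an alternative added after the data were seen, chromosome 9 was at −0.024. The direction of all 40 named bins, runs and windows held in every alternative that could be fitted. They are extremes of these same data, with all 3 ratios on 1 side, so this outcome was largely fixed by their selection. Of the named bins, 6 of the 10 highest and 4 of the 10 lowest passed the test in each alternative that gave an adjusted p. DESeq2 gave none for any of the 10 lowest bins or for the highest bin of chromosome 9.

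The comparison rests on 3 pairs, 1 of them with 13576415 Cenp-a counts. With these libraries a bin needed a log2 difference of about 0.28 to be called, so smaller ones were not detectable bin by bin.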
